A study of Mus musculus with 3 samples.

Results

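Protocadherins are the largest family of cadherin-type adhesion proteins. Their genes were described here in KO-actin cells. These are mouse embryonic fibroblasts (MEFs) that lack their own β-actin, through a knockout, and express an introduced β-actin with a nuclear localization signal (NLS). The members were all genes whose mouse symbol begins with Pcdh, which gave 70 of the 46603 Ensembl genes in the count files. Of these, 58 were clustered genes (14 alpha, 22 beta and 22 gamma) and 12 were non-clustered genes. Polyadenylated RNA was sequenced from 3 KO-actin libraries, numbered replicates 1 to 3, and raw read counts per gene were deposited. They share 1 condition, which leaves comparisons among genes and among libraries. Knockout and wild-type libraries were not analysed here. The labels do not say whether the libraries are separate cultures, so the spread between them may be technical. Nor do they name the promoter behind the NLS-tagged β-actin or say whether the cells are 1 clone.

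Clustered protocadherins are known from neurons, where each cell uses a small choice of isoforms and where matching isoforms on sister branches make them avoid each other. Each alpha and gamma gene has its own large first exon, which encodes the extracellular and transmembrane parts and is joined to constant exons for a common cytoplasmic end, whereas beta genes have no constant part. Promoter choice at these clusters depends on CTCF, cohesin and DNA methylation. Non-clustered protocadherins are separate genes with their own cytoplasmic tails, grouped as delta1 and delta2 by conserved motifs in those tails, and they act in cell adhesion, migration and signalling.

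The libraries held 49932446, 49587453 and 44383636 counts. Levels are given as CPM, the counts of a gene relative to the TMM-scaled size of its library. Levels of different genes are compared as CPM per kilobase (kb) of exonic length that no other gene of the same strand shares. Genes with more than 3 counts in every library are called above the floor, since a count of 0 allows up to 3. This floor was 0.0601, 0.0609 and 0.0671 CPM in replicates 1, 2 and 3 and covers counting error only. Of all protein-coding genes, 58.9% were above it, which is the share to set beside the gene lists below. The fibroblast label was checked against marker genes: 9 of 10 fibroblast markers were above the floor, with a summed level of 11886 to 12869 CPM, led by Vim and Col1a1, while Dcn had 8, 8 and 6 counts and Lum had 0 in every library. Neuronal markers were above the floor in 6 of 6 cases and summed to 57.2 to 57.3 CPM, most of it from Map2, while Rbfox3 had 0.306 ± 0.0229 CPM (SD, n = 3). Epithelial markers (3 of 6 above the floor) summed to 80.2 to 88.9 CPM, nearly all from Krt19 (44.1 ± 4.14 CPM) and Krt18 (37.9 ± 1.08 CPM; SD, n = 3), with Epcam at 0, 1 and 0 counts. Glial and neural crest markers (2 of 6) summed to 2.31 to 2.86 CPM, with Sox10 at 0, 2 and 4 counts, and endothelial markers (2 of 5) to 2.01 to 2.56 CPM, with Cdh5 at 0, 0 and 1. Their part in the protocadherin levels was not tested.

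The non-clustered genes Pcdh19 and Pcdh18 had the highest CPM of the family. Pcdh19, a delta2 protocadherin that associates with N-cadherin, had 56.6, 55.0 and 54.8 CPM in replicates 1, 2 and 3, a mean of 55.4 ± 0.973 (SD, n = 3). Pcdh18, also delta2, had 54.1, 50.1 and 49.6 CPM, a mean of 51.3 ± 2.44 (SD, n = 3). Replicate 1 was the highest library for both genes. Per kb Pcdh18 was the higher, at 9.56 ± 0.455 against 5.30 ± 0.0930 CPM per kb (SD, n = 3). The other 3 delta2 genes were far lower on either scale. Pcdh10, which links to the WAVE complex of actin regulators, had 11, 20 and 19 counts, or 0.350 ± 0.113 CPM (SD, n = 3). Pcdh17 had 3, 4 and 1 counts and Pcdh8 had 1, 2 and 1, so neither was above the floor. In bulk RNA, fewer cells expressing a gene and less RNA per cell cannot be told apart, and this holds for every low value given here.

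The 250 bases before the RefSeq start sites of 4 delta2 genes are shown to set the promoters of the highly expressed Pcdh18 and Pcdh19 beside those of the weakly expressed Pcdh10 and Pcdh17. They are written 5′ to 3′ on the strand of the gene, in build GRCm38.p6. Capitals mark CCAAT, the box bound by NF-Y, on either strand (ATTGG is its reverse complement). The Pcdh18 window is chr3:49757317-49757566 on the minus strand, Pcdh19 is chrX:133688994-133689243 on the minus strand, Pcdh10 is chr3:45378148-45378397 on the plus strand and Pcdh17 is chr14:84443313-84443562 on the plus strand.
Pcdh18: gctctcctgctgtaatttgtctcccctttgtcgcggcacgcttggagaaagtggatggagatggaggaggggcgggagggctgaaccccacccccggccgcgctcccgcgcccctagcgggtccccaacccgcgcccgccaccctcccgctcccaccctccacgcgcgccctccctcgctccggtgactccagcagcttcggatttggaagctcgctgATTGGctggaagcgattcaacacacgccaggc
Pcdh19: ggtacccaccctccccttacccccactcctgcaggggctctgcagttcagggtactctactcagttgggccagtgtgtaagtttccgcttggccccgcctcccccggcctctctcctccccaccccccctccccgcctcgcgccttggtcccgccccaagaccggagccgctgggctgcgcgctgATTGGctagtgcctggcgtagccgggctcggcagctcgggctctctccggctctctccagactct
Pcdh10: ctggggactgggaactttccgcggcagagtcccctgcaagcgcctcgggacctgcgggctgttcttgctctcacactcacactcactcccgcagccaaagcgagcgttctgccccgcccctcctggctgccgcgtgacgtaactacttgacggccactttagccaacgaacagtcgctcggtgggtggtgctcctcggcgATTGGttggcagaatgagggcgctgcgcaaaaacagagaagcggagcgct
Pcdh17: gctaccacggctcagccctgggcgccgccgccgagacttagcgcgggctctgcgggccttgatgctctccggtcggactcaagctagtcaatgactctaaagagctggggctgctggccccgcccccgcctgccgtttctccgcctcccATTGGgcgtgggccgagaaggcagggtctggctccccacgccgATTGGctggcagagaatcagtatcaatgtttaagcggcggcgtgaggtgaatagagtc

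Over the full RefSeq windows of 300 bases, which add 50 bases after the start, 9 of the 12 non-clustered genes had an entry. CCAAT on either strand occurred in 8 of the 9 (not in Pcdh7) and in 37.4% of all 32851 promoter windows. The motif was chosen for the search after these sequences had been read. Counted from the start site, its first base lay at -32 in Pcdh18, at -65 in Pcdh19, at -50 and 34 in Pcdh10 and at -101 and -58 in Pcdh17. The TATA motif TATAAA, searched on either strand, was found for Pcdh8 and Pcdh15 among the 9 and in 13.6% of all windows. Windows of the 4 genes shown held 23 CG dinucleotides for Pcdh18, 18 for Pcdh19, 24 for Pcdh10 and 26 for Pcdh17, and as many or more were present in 21.5%, 29.7%, 19.98% and 16.9% of all windows, respectively. The window of Pcdh8, the delta2 gene not shown, had CCAAT at -68. It held 14 CG, fewer than the 4 shown, and as many or more were present in 36.3% of all windows. Pcdh18 lies on chromosome 3 from 49743296 to 49757325 and Pcdh19 on chromosome X from 133582860 to 133688987, both on the minus strand (GENCODE M21, GRCm38).

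Among the delta1 genes, Pcdh1, which is known from airway epithelium, was the one expressed at a moderate level. It had 12.3, 12.6 and 12.2 CPM, a mean of 12.4 ± 0.187 (SD, n = 3), the smallest relative spread among the members described here. Pcdh7 had 1.38, 1.16 and 1.10 CPM, a mean of 1.21 ± 0.151 (SD, n = 3). Pcdh9 had 5, 2 and 7 counts and was not above the floor in replicate 2. Pcdh11x was at 0 in all 3 libraries. Pcdh1 alone made up 90.4% ± 1.05 (SD, n = 3) of the summed delta1 CPM. The remaining 3 non-clustered genes were near 0: Pcdh12, a protocadherin of endothelial cells, had 1, 0 and 0 counts, Pcdh15, which forms the tip links of hair cells, had 2, 0 and 0, and Pcdh20 had 1 in each library. In all, 5 of 12 non-clustered genes were above the floor, and Pcdh18 and Pcdh19 together held 88.3% ± 0.321 (SD, n = 3) of their summed CPM.

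The clustered genes lie in 1 stretch of 912 kb on the plus strand of chromosome 18, from 36930184 to 37841873 (GRCm38), with alpha first, then beta, then gamma. At the alpha end almost no reads were counted. Of the 14 alpha genes, 12 had 0 counts in every library and none was above the floor. The exceptions were Pcdhac2, a C-type isoform known from serotonergic neurons, with 0, 1 and 6 counts, and 1 of the 2 Ensembl genes that carry the symbol Pcdha11 (ENSMUSG00000007440, named after its values were seen), with 0, 1 and 0. Summed over the cluster, alpha had 0, 2 and 6 counts, or 0, 0.0406 and 0.134 CPM. Replicate 3 held 6 of the 8 counts. Pcdhac1, the other C-type isoform of the cluster, was at 0 in all 3 libraries.

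**Figure D1:**
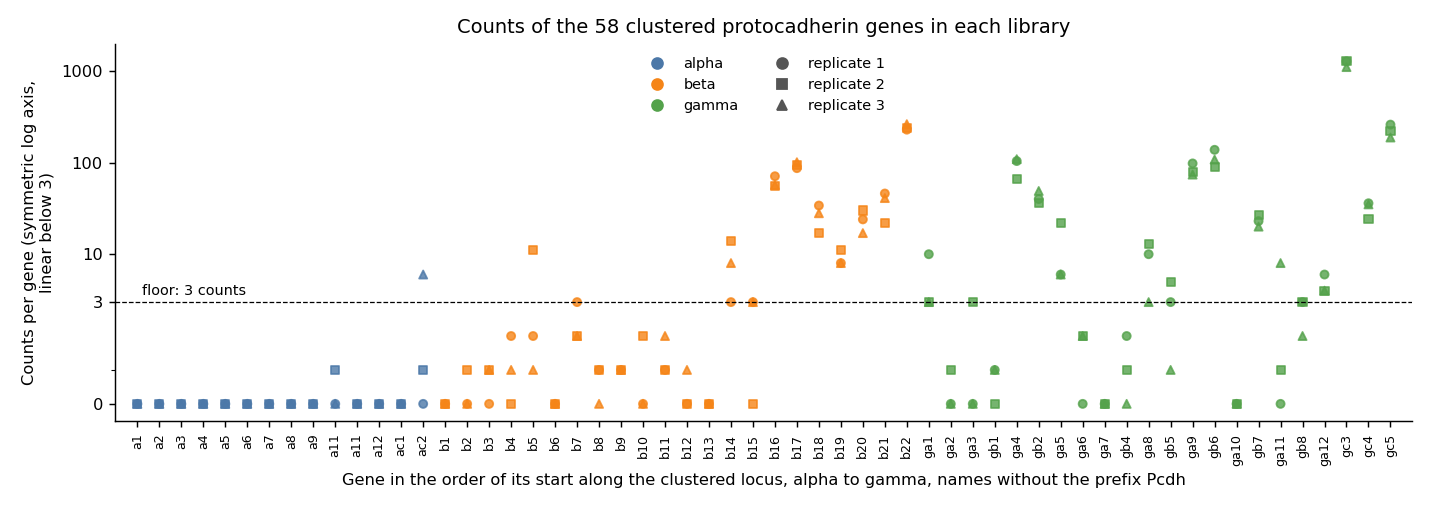
Counts of the 58 clustered genes in each library, in the order of their starts from alpha to gamma (symmetric log axis, linear below 3 counts). Circles, squares and triangles stand for replicates 1, 2 and 3, and the dashed line marks the floor of 3 counts. No alpha gene lies above the line in every library, the 7 beta genes from Pcdhb16 to Pcdhb22 do, and Pcdhgc3 is the highest gene with 1104 to 1283 counts.

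Expression of the beta cluster was split by position. The 7 genes at its 3′ end, Pcdhb16 to Pcdhb22, were all above the floor, and none of the 15 genes from Pcdhb1 to Pcdhb15 was. This division was noticed after the values were seen. The 7 genes summed to 9.998, 9.52 and 11.5 CPM, a mean of 10.3 ± 1.05 (SD, n = 3), against 0.321, 0.690 and 0.448 CPM, a mean of 0.486 ± 0.188 (SD, n = 3), for the other 15. They held 95.5% ± 1.95 (SD, n = 3) of the beta CPM. Pcdhb14, named after its values were seen, had 3, 14 and 8 counts and would be above the floor without replicate 1, which makes 1 of 15. Pcdhb1, Pcdhb6 and Pcdhb13 were at 0 in all 3 libraries.

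Pcdhb22, the last beta gene (37517871 to 37524479), led the cluster with 4.59, 4.83 and 5.89 CPM, a mean of 5.10 ± 0.690, or 0.829 ± 0.112 CPM per kb (SD, n = 3). It held 47.0% ± 2.36 (SD, n = 3) of the beta CPM. Its neighbour upstream, Pcdhb21, had 0.922, 0.446 and 0.918 CPM, so that replicate 2 lay below the other libraries. Both genes overlap in their exons by up to 9.67% of their length, and reads from the overlap cannot be assigned to either. Further upstream, Pcdhb17 had 1.98 ± 0.262 CPM and Pcdhb16 had 1.28 ± 0.143 (SD, n = 3). Pcdhb18 had 0.551 ± 0.180 and Pcdhb20 had 0.490 ± 0.114 CPM (SD, n = 3). Pcdhb19 was the lowest of the 7 with 8, 11 and 8 counts. Per kb the 7 genes in order from Pcdhb16 had 0.245, 0.424, 0.109, 0.0263, 0.138, 0.179 and 0.829 CPM per kb, so levels within the stretch were uneven and did not rise steadily towards the 3′ end.

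The gamma cluster was the most highly expressed of the clusters, and 10 of its 22 genes were above the floor. Its A, B and C subtypes are defined by the sequence of their variable exons, and the C-type genes stand last, next to the constant exons. Pcdhgc3 (37806364 to 37841873) had 25.6, 26.04 and 24.7 CPM, a mean of 25.4 ± 0.675 (SD, n = 3). Pcdhgc5 had 5.21, 4.48 and 4.21 CPM, a mean of 4.63 ± 0.517 (SD, n = 3). Pcdhgc4, the isoform required for the survival of certain interneurons, had 0.721, 0.487 and 0.783 CPM, a mean of 0.664 ± 0.156 (SD, n = 3). The 3 C-type genes, which were all above the floor, held 78.8% ± 2.03 (SD, n = 3) of the gamma CPM, and Pcdhgc3 alone held 65.2% ± 2.53. C-type genes of the alpha cluster had 0, 1 and 6 counts in sum.

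Of the 12 gamma A genes, 4 were above the floor. Pcdhga4 had 2.08, 1.36 and 2.44 CPM, a mean of 1.96 ± 0.550 (SD, n = 3), and Pcdhga9 had 1.74 ± 0.195 (SD, n = 3). Pcdhga5 had 6, 22 and 6 counts, with replicate 2 well above the others, and Pcdhga12 had 6, 4 and 4. The other 8 were not above the floor. Among these, named after their values were seen, Pcdhga8 had 10, 13 and 3 counts and Pcdhga1 had 10, 3 and 3, means above that of Pcdhga12, while Pcdhga7 and Pcdhga10 had 0 in every library. Among the 7 gamma B genes, Pcdhgb6 had 2.77, 1.81 and 2.42 CPM, a mean of 2.33 ± 0.485 (SD, n = 3). Pcdhgb2 followed with 0.876 ± 0.194 and Pcdhgb7 with 0.485 ± 0.0545 CPM (SD, n = 3), and the other 4 were not above the floor. In sum the A genes had 4.44 ± 0.419 CPM and the B genes 3.84 ± 0.504 (SD, n = 3), and their ranges over libraries overlapped.

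**Figure D2:**
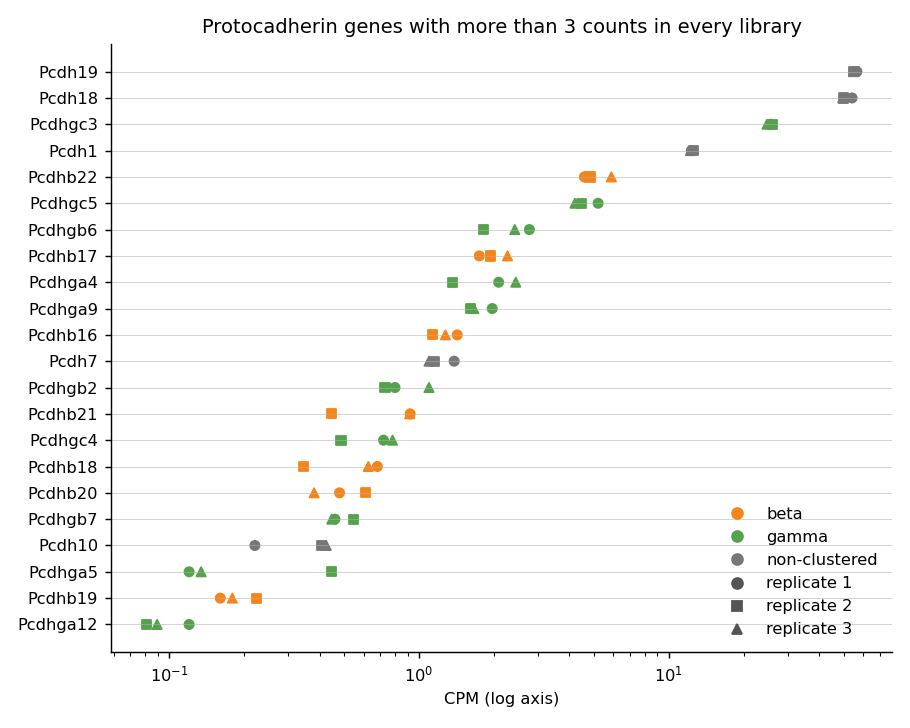
CPM (log axis) of the 22 protocadherin genes with more than 3 counts in every library, ordered by mean CPM. Circles, squares and triangles are replicates 1, 2 and 3, and colours mark beta, gamma and non-clustered genes. Pcdh19, Pcdh18, Pcdhgc3 and Pcdh1 lie above 10 CPM in every library, and no other member reaches that level in any.

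How far these counts tell single alpha and gamma genes apart depends on the shared exons. Every alpha gene shared 38.9% to 91.4% of its exonic length with another gene of the same strand (median 53.6%), and every gamma gene shared 31.5% to 66.8% (median 44.7%). The largest share was that of Pcdha4, with 494 of 5768 bases unshared, so its 0 counts say little about its expression. The constant part came to 2860 to 2864 bases for alpha. Its counterpart in gamma was at least 2116 bases long. Among beta genes, Pcdhb21 and Pcdhb22 alone overlapped another gene, and no non-clustered gene did. Measured by sequence, the median share of 50-base windows that also occur in another gene's transcripts was 60.1% for alpha, 44.4% for gamma, 4.46% for beta and 0% for the non-clustered genes. With 100-base windows these shares were 55.4%, 43.7%, 0.207% and 0%. Shared sequence was therefore far more common in the alpha and gamma clusters than elsewhere in the family.

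The counts themselves bear on how such reads were treated. Pcdhga7 and Pcdhga10 contain the constant gamma exons and had 0 counts in every library, although 5618 reads were counted on gamma genes over the 3 libraries, so reads from the constant exons were not counted on every gene that holds them. Long transcripts that run through several genes of the locus are annotated as Gm42416, Gm37013 and Gm37388, and these were at 0 in all libraries too. The counting mode and the use of strand are not given in the sources used here. On the other strand, exons of another gene overlap 8 gamma, 4 alpha and 1 beta gene, and without strand such reads cannot be told apart. Pcdhga10 had 0 bases unshared on either strand, so without strand its 0 counts would say nothing of its expression. If length shared on either strand is left out, Pcdhgc3 moves from 7.53 to 14.0 CPM per kb, Pcdhgb7 from 0.187 to 0.266 and the non-clustered Pcdh7 from 0.114 to 0.145.

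**Figure D3:**
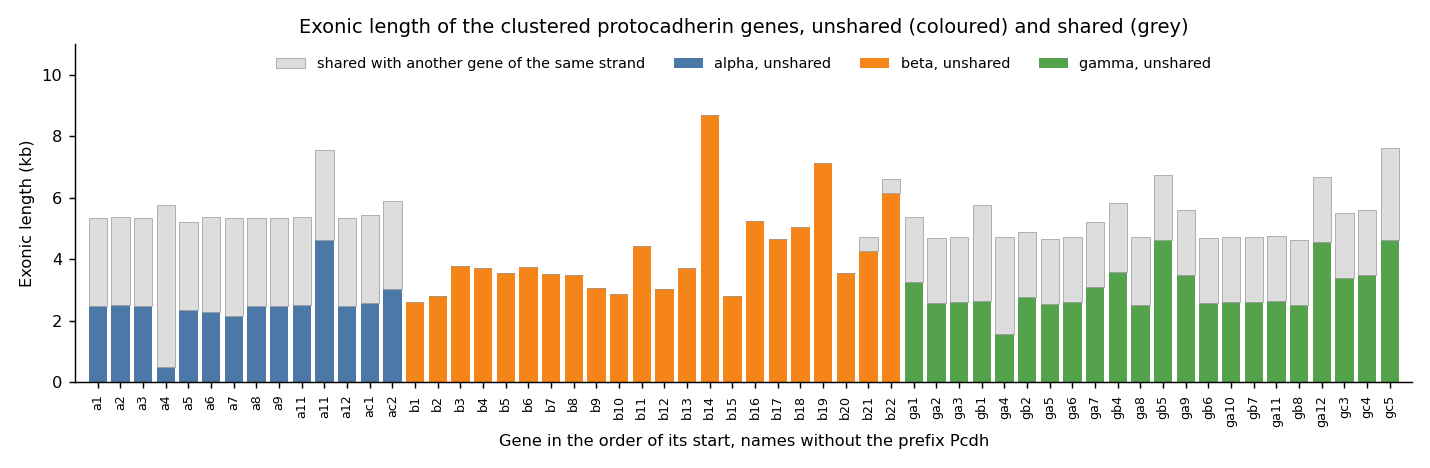
Exonic length (kb) of the 58 clustered genes in the order of their starts. The coloured part of each bar is not shared with another gene of the same strand and the grey part is. Alpha and gamma genes share a median of 53.6% and 44.7% of their length, and the grey part is absent from 20 of 22 beta genes.

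Compared by class, non-clustered genes had a higher summed CPM than clustered ones. Reads from the shared exons of alpha and gamma genes may be missing from the clustered sum, since their counting is not known. The non-clustered genes summed to 124.8, 119.4 and 118.3 CPM, a mean of 121 ± 3.46 (SD, n = 3). The 58 clustered genes summed to 50.7, 48.5 and 50.5 CPM, a mean of 49.9 ± 1.25 (SD, n = 3). The ranges did not overlap. The log2 ratio of clustered to non-clustered CPM was -1.30, -1.30 and -1.23 in replicates 1, 2 and 3, which over the pooled counts (17402 against 7179) is 2.42-fold more for the non-clustered genes. An exact sign-flip permutation test over the 3 libraries gave a two-sided p of 0.25, the smallest that 3 libraries allow, and 0.25 after Benjamini-Hochberg adjustment over 4 pairs of classes. Per kb of unshared exon the difference was much smaller. Clustered genes then summed to 14.3 ± 0.499 and non-clustered genes to 16.4 ± 0.554 CPM per kb (SD, n = 3), with log2 ratios of -0.22, -0.24 and -0.14, below 0 in 3 of 3 libraries. This direction turned when length shared on either strand was left out, as the clustered genes then summed to 20.9 ± 0.392 and the non-clustered to 16.5 ± 0.558 CPM per kb (SD, n = 3), with log2 ratios of 0.31, 0.33 and 0.38. With total exonic length the log2 ratios were -0.89, -0.89 and -0.81, so which class was higher per kb depended on the length used. These sums rest on few genes, since Pcdh18, Pcdh19 and Pcdhgc3 together held 77.4% ± 0.854 (SD, n = 3) of the CPM of all 70 members.

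Within the clusters, gamma summed to 39.0 ± 1.21 CPM, beta to 10.8 ± 0.989 and alpha to 0.0583 ± 0.0689 (SD, n = 3). The order gamma, beta, alpha held in 3 of 3 libraries without overlap. The log2 ratio of beta to gamma was -1.97, -1.90 and -1.68, which over the pooled counts is 3.62-fold more for gamma. Per kb this ratio averaged -2.57. Against the 0, 2 and 6 alpha counts of replicates 1, 2 and 3, gamma had 2017, 1884 and 1717 counts and beta had 515, 503 and 535. Over the pooled counts gamma exceeded alpha by a ratio of 702 (5618 against 8, 95% exact interval 356 to 1627), and beta exceeded alpha by 194 (1553 against 8, interval 98.3 to 450). Single libraries moved these ratios, because they rest on 8 alpha counts. The gamma ratio was 450 without replicate 1 (interval 228 to 1043) and 1950 without replicate 3 (3901 against 2, interval 540 to 16112), and the beta ratio was 509 without replicate 3 (1018 against 2, interval 141 to 4209). The intervals cover counting error only. The same exact permutation test gave p = 0.25 for each of the 3 pairs, before and after adjustment.

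**Figure D4:**
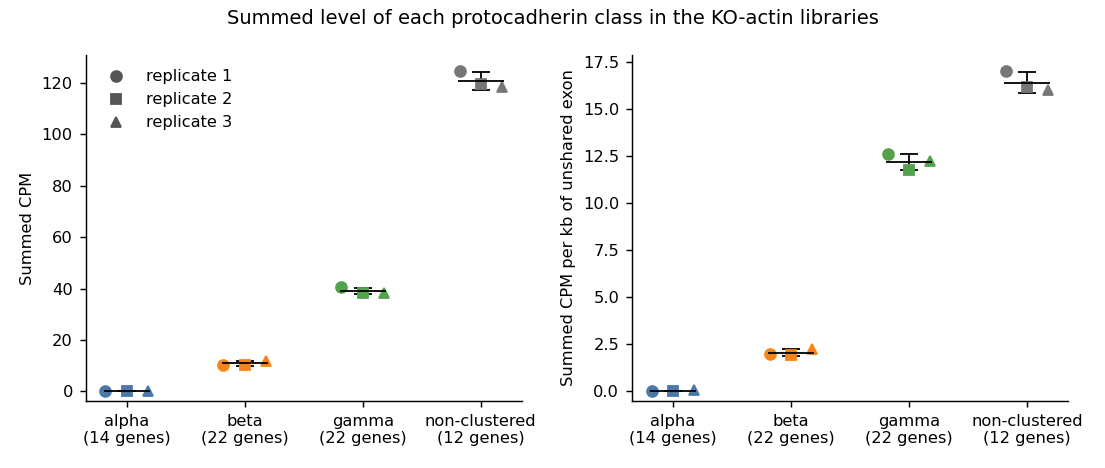
Summed CPM (left) and summed CPM per kb of unshared exon (right) of the 4 protocadherin classes in each library. Points are replicates 1 to 3, lines are means and bars are SDs (n = 3). Non-clustered genes reach 118.3 to 124.8 CPM against 38.2 to 40.4 for gamma on the left. Per kb of exon unshared on the same strand the means are 16.4 and 12.2, an order that turns to 16.5 and 18.8 when length shared on either strand is left out.

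In number, the family was not expressed more widely than genes at large. Above the floor were 22 of 70 members (31.4%), beside 32.6% of all 46603 genes and 58.9% of 21624 protein-coding genes. By class the share was 0% for alpha, 31.8% for beta, 45.5% for gamma and 41.7% for the non-clustered genes. The median level was 0.0103 CPM per kb for beta, 0.0295 for gamma and 0.0104 for non-clustered genes, against 0.539 over protein-coding genes. Most members were thus listed far below the typical coding gene, and a few exceeded it. Pcdh18, at 9.56 ± 0.455 CPM per kb (SD, n = 3), was above 75.8% of protein-coding genes, Pcdhgc3 above 72.4%, Pcdh19 above 67.6% and Pcdh1 above 55.1%.

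Per kb the order of the members differed from that by CPM. It ran Pcdh18, Pcdhgc3, Pcdh19, Pcdh1, Pcdhga4, Pcdhgc5, Pcdhgb6 and Pcdhb22 from the top, where Pcdhgc3 had 7.53 ± 0.200 and Pcdh19 had 5.30 ± 0.0930 CPM per kb (SD, n = 3). Ranges over the 3 libraries did not overlap between Pcdh18, Pcdhgc3, Pcdh19 and Pcdh1, each against the next. If length shared on either strand is left out, Pcdhgc3 stands above Pcdh18, so the order of this pair is uncertain. Pcdh19 exceeded Pcdh1 by 3.77-fold. Below Pcdh1, at 1.40 ± 0.0213 CPM per kb (SD, n = 3), the levels fell to 0.0213 ± 0.00452 for Pcdhga12 (SD, n = 3), with further steps from Pcdhb22 to Pcdhga9 (1.65-fold) and from Pcdhga5 to Pcdhb19 (3.49-fold) where ranges did not overlap. Of the 21 pairs of neighbours in the whole order, 16 overlapped in their ranges.

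Variation of each gene between libraries was tested by a chi-square of its counts against the library sizes. Over all genes that reached 10 counts in each of the libraries, 43.9% were called at an adjusted p of 0.05, or 12.5% without replicate 2. Of the members, 19 could be tested and 5 were called, namely Pcdhb21, Pcdhb22, Pcdhga4, Pcdhgb6 and Pcdh18. This share was not above that over all genes. The chi-square calls smaller differences where counts are higher, and the members were not matched to all genes for counts. Benjamini-Hochberg adjusted p-values of the chi-square test ranged from 0.00237 for Pcdhga4 to 0.0322 for Pcdhb22. Without replicate 2, the calls of Pcdhb21, Pcdhga4 and Pcdhgb6 were lost and those of Pcdhb22 (adjusted p = 0.0469) and Pcdh18 (adjusted p = 0.0277) held. Without replicate 1, 2 of 19 members were called, beside 32.9% of all genes, and without replicate 3, 4 of 20, beside 34.0%.

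Among the tested genes, replicate 2 was the library in which clustered genes most often lay low. The log2 CPM of replicate 2 was below the mean of replicates 1 and 3 in 6 of 8 gamma genes (median -0.26), 5 of 6 beta genes (median -0.18) and 3 of 5 non-clustered genes (median -0.02). A value below this mean was not always the lowest. Replicate 2 was the middle library for Pcdhb17, Pcdhb22, Pcdhgc5, Pcdh18, Pcdh19 and Pcdh7, which are among the genes counted. Clustered genes that failed the count filter of the test were not counted here, and a gene high in replicate 2 alone can fail it. Of those above the floor, Pcdhga5 had 6, 22 and 6 counts, Pcdhb19 had 8, 11 and 8 and Pcdhga12 had 6, 4 and 4. The 15 genes from Pcdhb1 to Pcdhb15, all untested, summed to 0.321, 0.690 and 0.448 CPM, highest in replicate 2. The 14 alpha genes, also untested, had 0, 2 and 6 counts, highest in replicate 3. Over all 13814 genes tested the median deviation of replicate 2 was 0.0046 and the quartiles were -0.10 and 0.10. The members were not matched to these genes for counts, and counting error in a log ratio is larger where counts are lower. Over the 19 tested members of all classes the median was -0.090. Over the 6 members with at least 100 counts in every library it was -0.032. Whether counting error alone gives the low values of replicate 2 was not tested. Among the 19 tested members Pcdhb21 deviated most, by -1.04, followed by Pcdhb18 at -0.92 and Pcdhga4 at -0.73. Pcdhb18 had 34, 17 and 28 counts, and its variation was not called (adjusted p = 0.104, chi-square test). Pcdhb20 deviated by 0.51 in the other direction, on 24, 30 and 17 counts, and its variation was not called (adjusted p = 0.389, chi-square test). No test of the difference between classes was made.

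**Figure D5:**
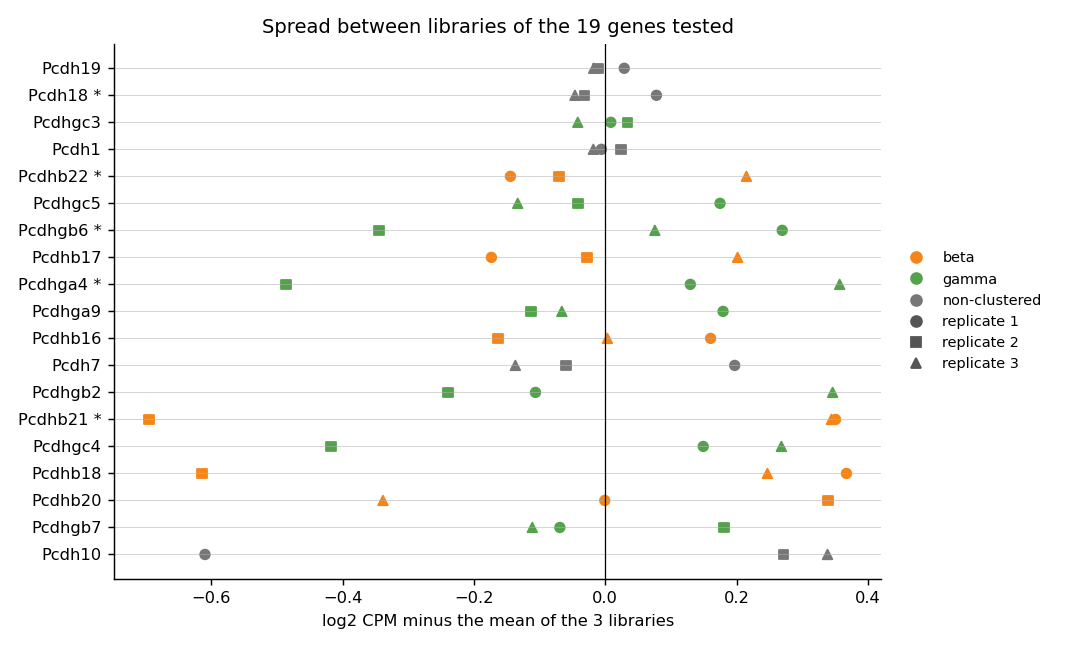
Log2 CPM of the 19 tested members in each library, as the difference from the mean of the 3 libraries, ordered by mean CPM. Circles, squares and triangles are replicates 1, 2 and 3, and an asterisk marks the 5 genes called by the chi-square test. Replicate 2 lies far to the left for Pcdhb21, Pcdhb18, Pcdhga4 and Pcdhgc4, while Pcdh19, Pcdhgc3 and Pcdh1 stay close to 0.

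The low levels at the alpha end were not shared by the genes just before it. On its other side low levels continued into the beta cluster, where none of the 15 genes from Pcdhb1 to Pcdhb15 was above the floor. Of the 5 nearest genes before the alpha cluster 5 were above the floor, at mean levels of 1.23 to 129.0 CPM, with the tRNA synthetase genes Hars and Hars2 among them. Past the gamma cluster this held for 4 of 5, led by Diaph1, a formin that nucleates actin filaments, at 93.4 ± 1.77 CPM (SD, n = 3). Between beta and gamma lie Taf7, a TFIID subunit, with 4.04 ± 0.814 CPM (SD, n = 3), and Slc25a2 with 9, 2 and 1 counts. Genes with 43.4, 72.1 and 129.0 CPM (Wdr55, Zmat2 and Hars) thus lay within the 5 nearest genes before an alpha cluster in which 12 of 14 genes had 0 counts.

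Genes that regulate the clustered locus were expressed throughout. All 14 genes of this list were above the floor, beside 58.9% of protein-coding genes, with a summed level of 2684 to 2824 CPM. Ctcf, which binds the promoters of clustered genes, had 138 ± 2.85 CPM, and Rad21, a cohesin subunit, had 570 ± 17.2 (SD, n = 3). Smchd1, a repressor of the clusters, had 207 ± 16.1 CPM and the DNA methyltransferase gene Dnmt3b had 8.02 ± 0.0684 (SD, n = 3). Of the 12 genes for cytoplasmic partners, all were above the floor, among them the kinase gene Ptk2 at 185 ± 2.98 and the WAVE complex gene Nckap1 at 267 ± 12.0 CPM (SD, n = 3). By the chi-square test 11 of 14 regulators and 4 of 12 partners varied between libraries, beside 43.9% of all genes tested. These shares were not matched for counts either, and Rad21 had 28608, 27143 and 26121 counts.

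Other cadherins were compared on the same scale. Cdh2, which encodes N-cadherin, the partner of Pcdh19, had 138 ± 4.18 CPM (SD, n = 3). On a list of 9 Cdh genes, 4 were above the floor. The large atypical cadherin Fat1 had 451 ± 16.9 CPM (SD, n = 3), and 6 of 9 genes on the list of large atypical cadherins were above the floor. Of all protein-coding genes, 58.9% were above the floor, and neither list is large enough to be set apart from this share. Per kb, Fat1 had 28.8 ± 1.08 and Cdh2 had 17.1 ± 0.518 (SD, n = 3), both above the 9.56 ± 0.455 CPM per kb of Pcdh18. All 70 protocadherins together summed to 171 ± 4.15 CPM (SD, n = 3).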

How the data were processed

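Polyadenylated RNA of 3 KO-actin libraries was sequenced, and the authors deposited the raw counts for each Ensembl gene, not normalized. The submitters' processing notes name Trimmomatic, FastQC, HISAT2 and HTSeq and the builds mm10 and GRCm38, without versions. The annotation release, the counting mode and the strand setting are not given in the sources used here. Reads in shared exons could be dropped or assigned by that setting.

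Symbols and coordinates came from GENCODE M21 (GRCm38), which matched 46091 of 46603 identifiers. Library sizes were scaled by TMM (edgeR 4.0.16, R 4.3.3). Classes were compared by an exact sign-flip permutation test. Variation between libraries was tested by chi-square (2 degrees of freedom) for genes reaching 10 counts in each library, with p adjusted by Benjamini-Hochberg and called at 0.05. Log ratios of classes in CPM used counts plus 0.5, and those per kb used counts with nothing added. No model contrast could be made with 1 condition. Python 3.11.15, numpy 2.4.6, pandas 2.3.3, scipy 1.17.1 and matplotlib 3.10.9 were used.

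Every non-clustered gene, the C-type genes and, in each cluster, genes above 3 counts in every library (up to 10 by mean CPM) were named. Members and lists were chosen with earlier results of these data known. Alternatives were other scalings (total counts, DESeq2 1.42.0 size factors), filters and lengths, and leaving out each replicate.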

Additional observations from a re-analysis of the deposited data

How the results depend on the processing

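No paired analysis was possible because the 3 libraries belong to 1 condition and no groups share replicate numbers. Other scalings left each class sum, class ratio and count within the spread between replicates or within 1.5 times. Requiring 1 count in every library in place of more than 3 raised the members counted as expressed from 22 to 35, beta from 7 to 12 and non-clustered from 5 to 9. Requiring 1 CPM lowered them to 12 in all, 3 for beta and 5 for gamma (from 10). With total exonic length in place of unshared length the gamma sum fell to 7.03 CPM per kb from 12.2, and with length unshared on either strand it rose to 18.8. The mean log2 ratio of clustered to non-clustered sums turned from -1.28 in CPM to 0.34 per kb of length unshared on either strand. Per kb the leading gene held 40.1% of beta and 61.8% of gamma. Members varying between libraries numbered 5 with total counts and with DESeq2 size factors, 2 when at least 100 counts were required (6 tested), and 2 to 4 when 1 replicate was left out. Length unshared on either strand, class ratios per kb of total exonic length and the count of beta genes in each pair of libraries were chosen after seeing the data. The alpha cluster had 8 counts in all, which give no order among its genes.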
